A study of Mus musculus with 18 samples.

Results

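The C-type lectin receptors described here are 10 genes of the mouse count table: Clec4e, Clec4d, Clec4n, Clec4a2, Clec5a, Clec7a, Clec9a, Clec10a, Clec12a, and Ly75. They were chosen by name as receptors that myeloid cells use to read microbial and self glycans. Earlier results of these data were known at that choice, so the list is not blind to them. All 10 of 10 were among the 29875 genes listed. The cells were dendritic cells (DCs) grown from bone marrow of wild-type C57Bl6/J mice aged 8 to 12 weeks, in medium with 10% supernatant of a hybridoma that secretes GM-CSF. All of them received 200 ng/ml lipopolysaccharide (LPS) on day 8 for 24 hours, so suspension and collagen cells carried the same maturation stimulus. They were then placed in migration chambers in bovine collagen gels of 1.7, 2.6, 3.5, or 4.4 mg/ml, or in the same chambers without collagen (suspension), and RNA was taken 5 hours after a gradient of the chemokine CCL19 was set up. Each of the 4 densities and of the 2 suspension groups has 3 libraries, 18 in all. The suspension groups are titled without and with CCL19, but their library names state the opposite, so they are called by their titles and no CCL19 direction is given. Titles call the replicates biological without naming the animals, so the p-values measure the spread between these libraries only. Libraries of 1 replicate number share a date and a lane in the library names, and each replicate number holds every group once.

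C-type lectin receptors are membrane proteins of phagocytes that bind sugars, lipids, or proteins of microbes and dying cells. Activating members carry or borrow a tyrosine motif, recruit the kinase Syk, and pass the signal through CARD9, BCL10, and MALT1 to NF-κB. Inhibitory members recruit the phosphatases SHP-1 and SHP-2 instead, and a further kind mainly takes up antigen. DCs use these receptors to sense fungi and mycobacteria and to load antigen for T cells.

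By role, the activating members are Clec4e (Mincle, a receptor for mycobacterial glycolipid), Clec4d (MCL, its partner), Clec4n (Dectin-2, a mannan receptor), Clec7a (Dectin-1, the β-glucan receptor), and Clec5a (MDL-1, which signals through the adaptor DAP12). Clec4a2 (DCIR) and Clec12a (MICL) are inhibitory, Clec9a binds actin exposed by dead cells and marks the cDC1 lineage, and Clec10a (MGL1) and Ly75 (DEC-205) bind and take up ligands. In the GRCm38 annotation, 8 of the 10 genes lie on chromosome 6. Clec4a2 (123106428 to 123143999, plus strand), Clec4n (123229843 to 123247021, plus), Clec4d (123262111 to 123275265, plus), and Clec4e (123281789 to 123289870, minus) follow each other in 1 cluster. Clec12a (129342691 to 129365303, plus), Clec9a (129408862 to 129424763, plus), and Clec7a (129461591 to 129472779, minus) lie in another, and Clec5a (40574894 to 40585821, minus) stands alone. Clec10a is on chromosome 11 (70156197 to 70170834, plus) and Ly75 on chromosome 2 (60292103 to 60383303, minus).

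The 200 bases before the RefSeq start of Clec4e, Clec4d, and Clec7a are shown because the levels of these genes varied together over the libraries and no annotated exon lies in those windows. RefSeq sequences of GRCm38.p6 were matched for 8 of the 10 members, all but Clec4n and Clec10a. Sequences are written 5′ to 3′ on the strand of the gene, with capitals for matches on either strand to TTNCNNAA (C/EBP), GAGGAA (PU.1), TGANTCA (AP-1), or the NF-κB motif, the sites of transcription factors known from myeloid cells. The windows are chr6:123289872-123290071 (minus strand) for Clec4e, chr6:123261907-123262106 (plus strand) for Clec4d, and chr6:129472786-129472985 (minus strand) for Clec7a.
Clec4e: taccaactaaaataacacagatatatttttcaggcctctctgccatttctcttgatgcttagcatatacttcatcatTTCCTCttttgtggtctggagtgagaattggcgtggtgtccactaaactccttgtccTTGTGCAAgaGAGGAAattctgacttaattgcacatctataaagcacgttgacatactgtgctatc
Clec4d: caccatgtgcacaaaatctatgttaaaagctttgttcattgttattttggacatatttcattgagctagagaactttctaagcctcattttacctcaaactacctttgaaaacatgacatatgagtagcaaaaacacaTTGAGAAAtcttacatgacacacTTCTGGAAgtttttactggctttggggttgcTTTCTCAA
Clec7a: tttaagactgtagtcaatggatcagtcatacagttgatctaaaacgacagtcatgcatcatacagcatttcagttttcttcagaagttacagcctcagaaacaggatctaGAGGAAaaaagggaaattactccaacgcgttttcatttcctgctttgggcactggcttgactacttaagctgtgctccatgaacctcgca

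The Clec4e window held 1 C/EBP match, 66 to 59 bases before the start, and 2 PU.1 matches, 123 to 118 and 56 to 51 bases before it. The Clec4d window held 3 C/EBP matches, the nearest of them 8 to 1 bases before the start, and the Clec7a window 1 PU.1 match, 90 to 85 bases before it. Among the 8 members with a window of this length, 4 held C/EBP letters and 4 held PU.1 letters, against 30.1% and 18.9% of 27025 gene promoters. AP-1 and NF-κB letters were in 0 of the 8 windows, and in 5.55% and 5.84% of all promoters. The C/EBP and PU.1 matches in these 3 windows did not share a base, and matches are letters in a window, not sites shown to be used.

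Levels are given as CPM, read counts relative to the size of each library, with edgeR's TMM factors. Total counts were 13062944 to 28059839 per library, and on the scale of these CPM 3 counts correspond to 0.0941 to 0.256 CPM. Of the 10 members, 9 passed the filter on low counts and were tested with 13844 genes in all. Because long transcripts give more reads, genes were ranked against each other per kilobase of annotated exon. Over the 18 libraries the mean CPM per kilobase was 537 for Clec4n, 218 for Clec4d, 135 for Clec7a, 47.3 for Clec4e, 21.3 for Ly75, 8.44 for Clec12a, 8.36 for Clec4a2, 2.77 for Clec5a, 1.27 for Clec10a, and 0.0435 for Clec9a. In this order the ranges of neighbouring genes overlapped at each step except the last, where Clec10a reached down to 0.573 and Clec9a up to 0.13 CPM per kilobase. The activating receptors Clec4n, Clec4d, and Clec7a had the highest means per kilobase in suspension and in gels alike. In suspension alone Ly75 (23.9 CPM per kilobase) came before Clec4e (19.5), and Clec4a2 (6.15) before Clec12a (5.07).

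**Figure D1:**
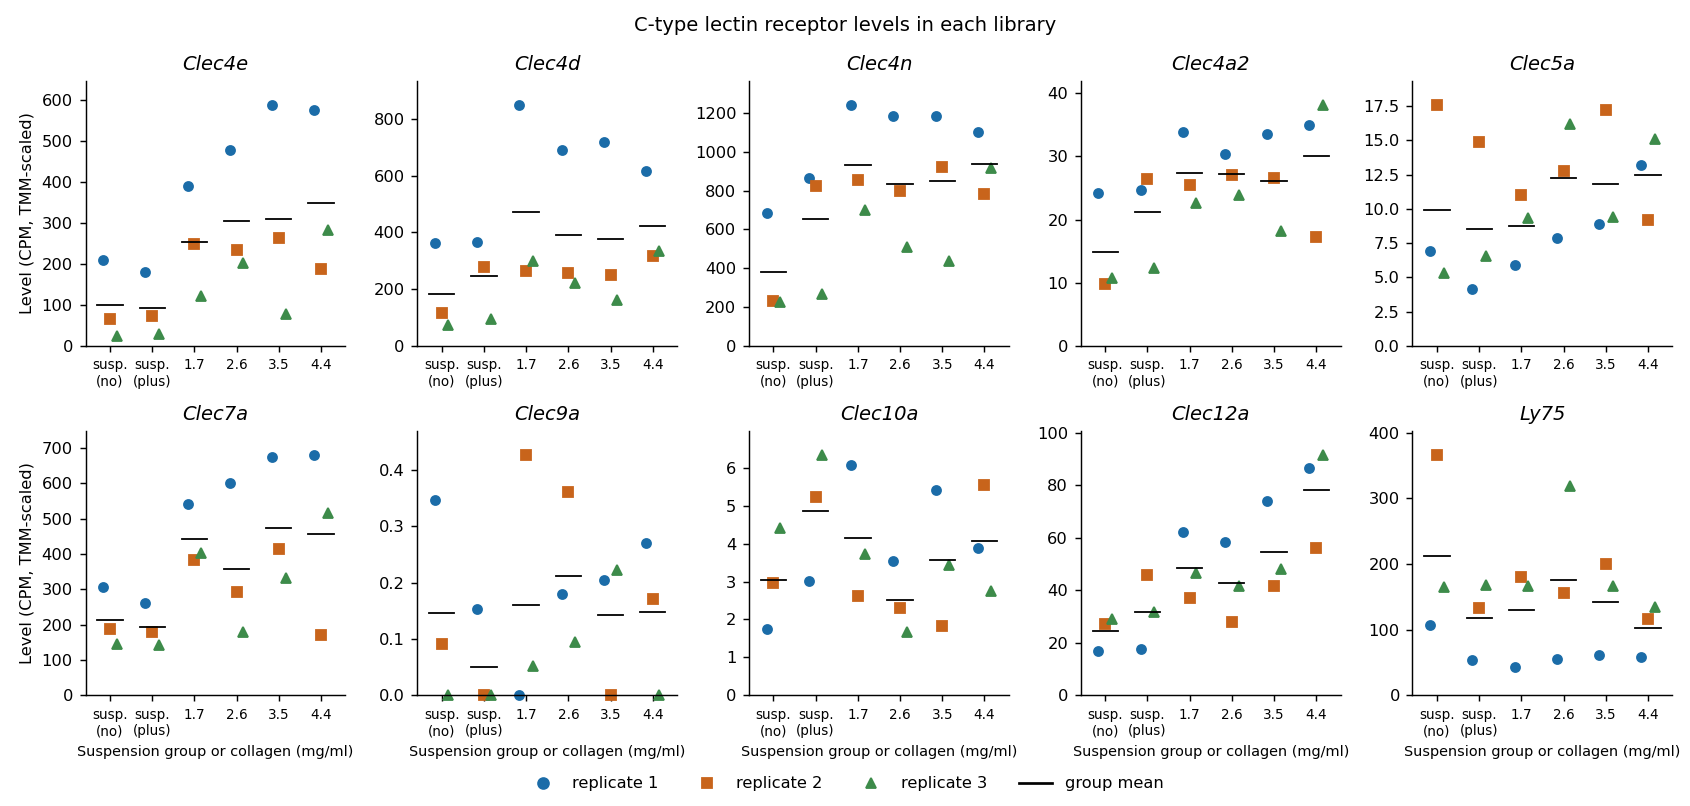
Level of each of the 10 receptors (CPM scaled with TMM factors, linear axes from 0) in the 18 libraries, by suspension group (titled without or with CCL19) or collagen density. Symbols mark the replicate and bars the mean of 3 libraries. Clec4e in gels lies above suspension in each replicate, and replicate 1 is highest for Clec4e and lowest for Ly75 in every group.

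The comparison of collagen with suspension asks whether DCs that migrate in a matrix hold other receptor levels than DCs in the same chamber without one. All gels had CCL19, but by titles and by library names alike 1 of the 2 suspension groups did not. Matrix and chemokine thus cannot be fully told apart here or at single densities. The group titled with CCL19 minus the other differed by log2 -0.10 for Clec4e, 0.42 for Clec4d, and 0.78 for Clec4n. It differed by 0.50 for Clec4a2, -0.14 for Clec7a, and 0.39 for Clec12a, none called by edgeR. Clec4e, Clec7a, and Clec12a were higher in collagen, by 3.12-, 2.11-, and 1.96-fold, and no member was called lower. In all, 3 of the 9 tested members passed an FDR of 0.1 in the quasi-likelihood F-test of edgeR (p-values adjusted by Benjamini-Hochberg), against 20.2% of all tested genes in either direction and 7.78% higher in collagen. With the replicate number as a block, 6 of 9 passed, all higher, against 34.8% and 15.6% of all tested genes. The 3 members added were Clec4d, Clec4n, and Clec4a2. The median log2 difference of the 9 members was 0.83, and that of all tested genes 0.00. Whether cells of 1 type were fewer or held less of an RNA cannot be told apart in bulk libraries.

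Clec4e (ENSMUSG00000030142), the receptor for mycobacterial glycolipid, was at 209, 66.2, and 25.2 CPM (replicates 1, 2, and 3) in suspension titled without CCL19 and at 179, 73.3, and 28.1 CPM in suspension titled with CCL19. In gels it was at 390.0, 248, and 121 CPM at 1.7 mg/ml, at 479, 233, and 202 CPM at 2.6 mg/ml, at 588, 263, and 78.7 CPM at 3.5 mg/ml, and at 575, 187, and 282 CPM at 4.4 mg/ml. Replicate 1 was highest in every group, so the pooled ranges overlapped, but all 12 gel libraries were above both suspension libraries of their own replicate. That held in 2.43% of all tested genes. The log2 difference was 1.64 (standard error 0.53, adjusted p = 0.0499 by edgeR), and 1.89 (standard error 0.25, adjusted p = 6.82e-05) with the replicate block. Within replicates 1, 2, and 3 the mean log2 CPM of gels exceeded that of suspension by 1.37, 1.73, and 2.52. Without replicate 2 the difference was 1.63 and missed the threshold (adjusted p = 0.318 by edgeR without the block).

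Clec4d (ENSMUSG00000030144), whose product pairs with Mincle, was at 363, 115, and 71.8 CPM in suspension titled without CCL19 and at 365, 277, and 95.5 CPM in suspension titled with CCL19. In gels it was at 849, 263, and 299 CPM at 1.7 mg/ml, at 692, 257, and 222 CPM at 2.6 mg/ml, at 718, 248, and 161 CPM at 3.5 mg/ml, and at 617, 318, and 335 CPM at 4.4 mg/ml. In replicates 1 and 3 all gels were above suspension, while in replicate 2 only 1 of the 4 gels was above both suspension libraries. The log2 difference was 0.96 (standard error 0.45, adjusted p = 0.173), and 1.01 (standard error 0.20, adjusted p = 0.00112) with the block in edgeR.

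Clec4n (ENSMUSG00000023349), the mannan receptor, was at 685, 229, and 227 CPM in suspension titled without CCL19 and at 866, 821, and 268 CPM in suspension titled with CCL19. In gels it ranged from 438 to 1241 CPM with a median of 885 CPM over 12 libraries. The gels were above both suspension libraries of their replicate in 10 of 12 cases, the other 2 being gels of replicate 2. How many of all tested genes reach 10 of 12 was not counted. Its log2 difference of 0.83 (standard error 0.33, adjusted p = 0.102) missed the threshold without the block and reached 0.92 (standard error 0.20, adjusted p = 0.00279) with it in edgeR.

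Clec7a (ENSMUSG00000079293), the β-glucan receptor, was at 308, 188, and 145 CPM in suspension titled without CCL19 and at 263, 179, and 141 CPM in suspension titled with CCL19. In gels it was at 542, 383, and 403 CPM at 1.7 mg/ml, at 600.5, 291, and 180.04 CPM at 2.6 mg/ml, at 676, 413, and 331 CPM at 3.5 mg/ml, and at 682, 172, and 517 CPM at 4.4 mg/ml. Of the 12 gels 11 were above both suspension libraries of their replicate, and the exception, replicate 2 at 4.4 mg/ml, was below both. At least 11 of 12 gels were above in 5.24% of all tested genes. The log2 difference was 1.08 (standard error 0.32, adjusted p = 0.0338), and 1.06 (standard error 0.21, adjusted p = 0.00122) with the block in edgeR. With GC and length offsets it was 0.84 and no longer passed (adjusted p = 0.13 by edgeR). Without the block it also missed the threshold without replicate 2 (log2 difference 1.20, adjusted p = 0.172) and without replicate 3 (log2 difference 1.00, adjusted p = 0.162).

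Clec5a (ENSMUSG00000029915), the DAP12-coupled receptor, was low and showed no common direction. It was at 4.14 to 17.6 CPM in suspension and at 5.93 to 17.2 CPM in gels. The 2 highest suspension values were both of replicate 2, in which gels were lower by 0.40 on the log2 scale, whereas in replicates 1 and 3 they were higher by 0.67 and 1.02. The log2 difference was 0.29 (standard error 0.32, adjusted p = 0.601), and 0.41 (adjusted p = 0.231) with the block in edgeR.

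Of the inhibitory members, Clec12a (ENSMUSG00000053063) was at 16.8, 27.0, and 29.1 CPM in suspension titled without CCL19 and at 17.8, 45.7, and 31.8 CPM in suspension titled with CCL19. In gels it was at 62.2, 37.0, and 46.4 CPM at 1.7 mg/ml, at 58.3, 27.9, and 41.5 CPM at 2.6 mg/ml, at 74.1, 41.6, and 48.2 CPM at 3.5 mg/ml, and at 86.6, 56.1, and 91.6 CPM at 4.4 mg/ml. In replicates 1 and 3 all gels were above suspension, but in replicate 2 only the gel of 4.4 mg/ml was. The log2 difference was 0.97 (standard error 0.24, adjusted p = 0.0146), and 0.93 (standard error 0.23, adjusted p = 0.00736) with the block in edgeR. The size differed between replicates, with 2.00 in replicate 1, 0.17 in replicate 2, and 0.83 in replicate 3 on the log2 scale. Without replicate 1 the log2 difference was 0.54 (adjusted p = 0.186 by edgeR), and without replicate 3 it was 1.05 (adjusted p = 0.111).

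Clec4a2 (ENSMUSG00000030148), which encodes the inhibitory receptor DCIR, was at 24.2, 9.8, and 10.7 CPM in suspension titled without CCL19 and at 24.6, 26.4, and 12.3 CPM in suspension titled with CCL19. In gels it lay between 17.2 and 38.1 CPM with a median of 26.9 CPM, so the ranges overlapped, and 10 of 12 gels were above both suspension libraries of their replicate. The share of all tested genes with 10 of 12 was not counted. The log2 difference was 0.64 (standard error 0.25, adjusted p = 0.106), and 0.68 (standard error 0.21, adjusted p = 0.0206) with the block in edgeR. With the block and offsets for GC and length together, the difference was 0.36 and Clec4a2 was not called (adjusted p = 0.23 by edgeR).

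The uptake receptors Clec10a and Ly75 were not called with or without the block. Ly75 (ENSMUSG00000026980) was at 107, 367, and 164 CPM in suspension titled without CCL19, at 53.9, 133, and 167 CPM in suspension titled with CCL19, and at 43.8 to 318 CPM in gels. Replicate 1 was lowest in every group, the reverse of Clec4e. Its log2 difference was -0.22 (standard error 0.40, adjusted p = 0.767), and -0.28 (adjusted p = 0.299) with the block in edgeR. With the block and offsets for GC and length together it was -0.29 and was called lower in gels (adjusted p = 0.0992). Clec10a (ENSMUSG00000000318) ranged from 1.74 to 6.35 CPM in suspension and from 1.66 to 6.09 CPM in gels, with a log2 difference of -0.14 (standard error 0.31, adjusted p = 0.82 by edgeR). Its direction differed between replicates, with gels higher by 0.98 in replicate 1 and lower by 0.47 and 0.91 on the log2 scale in replicates 2 and 3.

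Clec9a (ENSMUSG00000046080), the receptor that marks cDC1, had 0 to 9 counts per library and 47 counts in all 18 libraries. Its mean was 0.0987 CPM in suspension and 0.166 CPM in gels, at or near the level that 3 counts give, and it did not enter the test. In the exact two-sided permutation test of mean log2 CPM over the 12 gel and 6 suspension libraries its p was 0.311. The same exact permutation test, which takes no account of the replicate, gave p = 0.00205 for Clec4e, 0.0311 for Clec4d, 0.00964 for Clec4n, 0.00943 for Clec4a2, 0.00533 for Clec7a, and 0.00167 for Clec12a. The exact permutation p was 0.166 for Clec5a, 0.662 for Clec10a, and 0.576 for Ly75, and these 10 values are not adjusted.

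**Figure D2:**
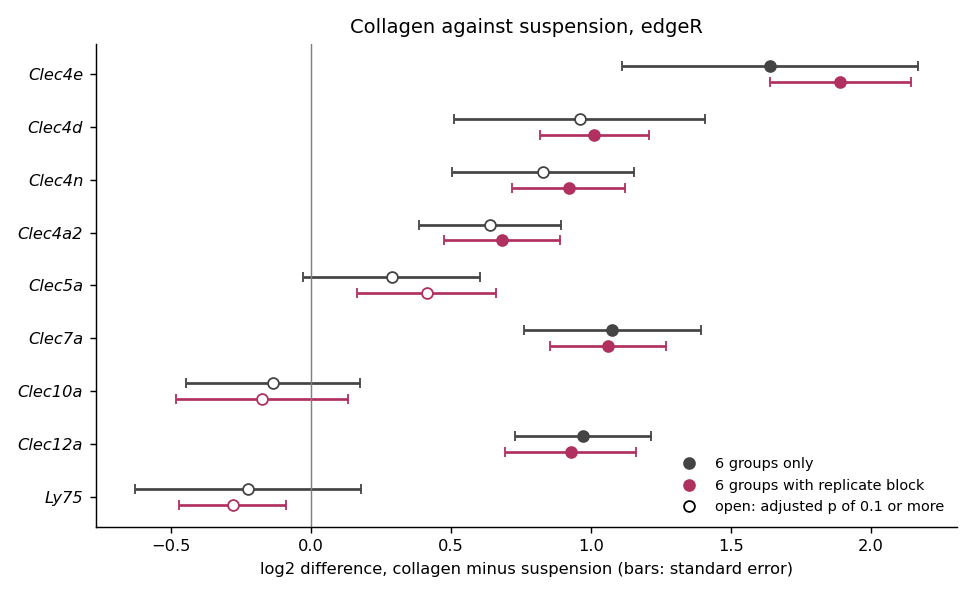
Log2 difference between the mean of 4 collagen groups and the mean of 2 suspension groups for the 9 tested receptors, with standard errors from edgeR, without (grey) and with (red) the replicate block; filled points passed an FDR of 0.1. The block adds Clec4d, Clec4n, and Clec4a2 to Clec4e, Clec7a, and Clec12a with smaller errors and differences that change little (0.96 and 1.01 for Clec4d).

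**Figure D3:**
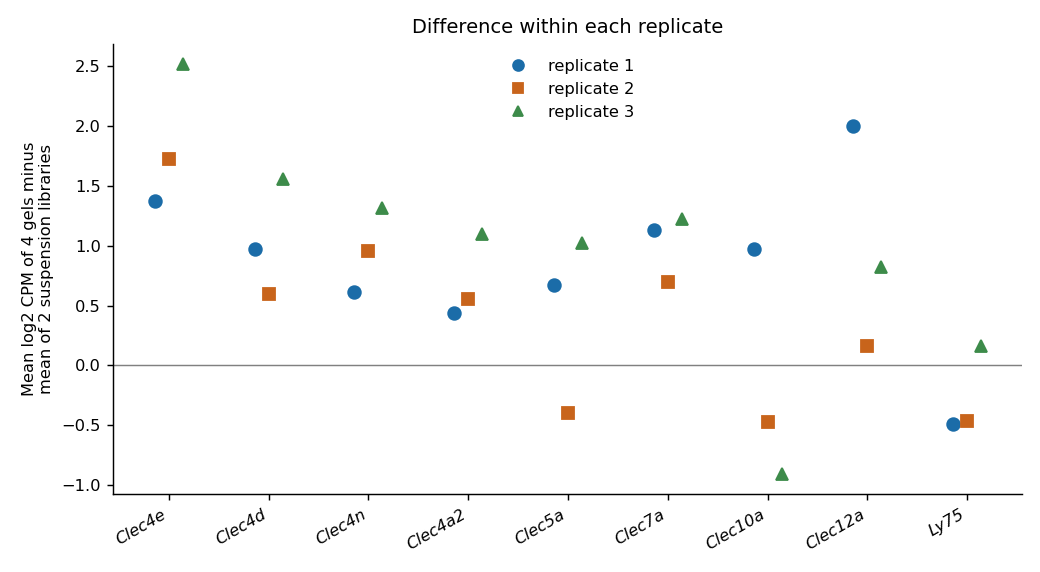
Mean log2 CPM of the 4 gel libraries minus that of the 2 suspension libraries of the same replicate, for the 9 tested receptors (1 symbol for each replicate). The points of Clec4e, Clec4d, Clec4n, Clec4a2, Clec7a, and Clec12a lie above 0 in all 3 replicates, and those of Clec5a, Clec10a, and Ly75 on both sides of it.

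Each density was then compared with suspension, to ask whether receptor levels differed at a given density. These 4 comparisons share the 6 suspension libraries. Without the block no member passed at 1.7, 2.6, or 3.5 mg/ml in edgeR, where 0.0361%, 7.87%, and 4.9% of all tested genes did. At an unadjusted p under 0.05 the members numbered 2, 1, and 3 of 9, against 1113, 2801, and 2437 of 13844 tested genes. DESeq2 called 0, 1, and 3 of the 9 members, against 141, 1828, and 1343 of 13844 tested genes. At 4.4 mg/ml Clec4e, Clec7a, and Clec12a passed, 3 of 9 against 14.8% of all tested genes. In that fit Clec4e and Clec7a missed the threshold without replicate 2 (adjusted p = 0.412 and 0.256 by edgeR) and without replicate 3 (adjusted p = 0.192 and 0.375), Clec12a without replicate 3 (adjusted p = 0.119), and Clec4e without the library of replicate 2 at 4.4 mg/ml (adjusted p = 0.101). With the block 4, 4, 5, and 6 of 9 members passed in the order of density, against 2.91%, 21.6%, 18.4%, and 31.9% of all tested genes. Clec4e, Clec4d, Clec4n, and Clec7a passed at each of the 4 densities, Clec12a at 3.5 and 4.4 mg/ml, and Clec4a2 at 4.4 mg/ml.

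Clec4e was higher than suspension by 1.65, 1.99, 1.71, and 2.21 on the log2 scale from 1.7 to 4.4 mg/ml with the block. Clec12a was higher by 0.76, 0.57, 0.93, and 1.45, of which the first and second value did not pass (adjusted p = 0.238 and 0.237 by edgeR). At 4.4 mg/ml Clec12a passed in both fits, with a log2 difference of 1.49 (standard error 0.32, adjusted p = 0.00824) without the block. Clec4d differed by 1.18, 0.91, 0.76, and 1.19 with the block, so its lowest value was at 3.5 mg/ml.

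**Figure D4:**
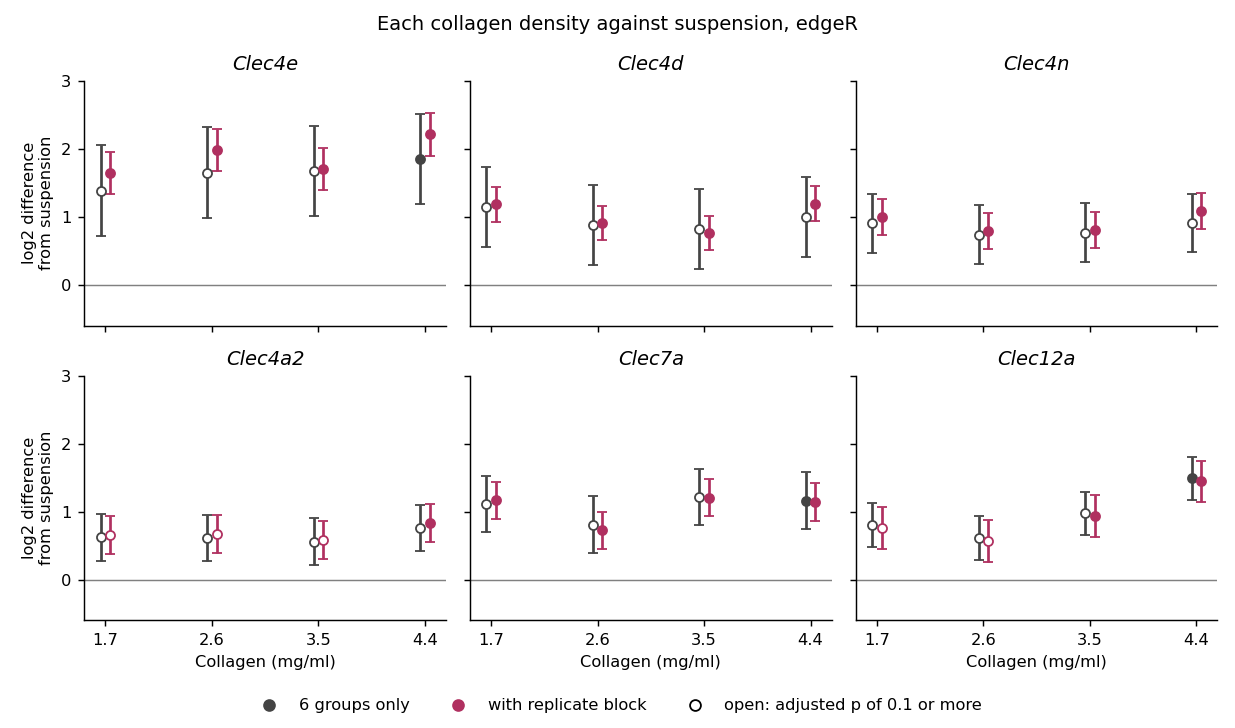
Log2 difference from suspension at each collagen density (mg/ml) for the 6 receptors that were higher in collagen with the replicate block, with edgeR's standard errors, without (grey) and with (red) the block; filled points passed an FDR of 0.1. The Clec4e difference is 1.65 at 1.7 mg/ml and 2.21 at 4.4 mg/ml with the block, and Clec12a has its highest value, 1.45, at 4.4 mg/ml.

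A linear trend over the 4 densities, in gels alone, passed in no member with or without the block in edgeR, nor with DESeq2, against 0.00722% of all tested genes without and 1.45% with the block. At an unadjusted p under 0.05 there were 0 members without the block and 1 with it, Clec12a. Of all 13844 tested genes, 997 and 1935 were under that value. The largest slope among the members was also that of Clec12a, 0.27 per mg/ml on the log2 scale (standard error 0.13, adjusted p = 0.709), with an adjusted p of 0.349 under the block. Its group means were 48.5 ± 12.7 CPM (SD, n = 3) at 1.7 mg/ml, 42.6 ± 15.3 CPM (SD, n = 3) at 2.6 mg/ml, 54.7 ± 17.2 CPM (SD, n = 3) at 3.5 mg/ml, and 78.1 ± 19.2 CPM (SD, n = 3) at 4.4 mg/ml. The slope of Clec4e was 0.16 (standard error 0.28), and those of Clec4d, Clec4n, Clec4a2, Clec7a, and Clec10a lay between -0.06 and 0.06. Clec5a had 0.17 and Ly75 -0.15.

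Any difference among the 6 groups was called in 0 members by edgeR without the block (1 at an unadjusted p under 0.05, and 1 called by DESeq2) and in 5 with it, against 4.9% and 24.3% of all tested genes. Of all 13844 tested genes, 2302 had an unadjusted p under 0.05 without the block, and DESeq2 called 2015. Between the suspension groups no member was called by edgeR with or without the block, where 0% of all tested genes were, or by DESeq2. At an unadjusted p under 0.05 there were 0 members without and 2 with the block, Clec4n and Ly75. Of all 13844 tested genes, 855 and 1960 were. Clec4n was at 380.2 ± 264 CPM (SD, n = 3) in the group titled without CCL19 and at 652 ± 333 CPM (SD, n = 3) in the group titled with it. Ly75 was at 213 ± 137 CPM (SD, n = 3) and at 118 ± 58.1 CPM (SD, n = 3), with replicate 2 of the former far above the other libraries.

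Across the libraries the members of the Dectin-2 cluster and Clec7a varied together. Over 18 libraries the Pearson r of log2 CPM among Clec4e, Clec4d, Clec4n, Clec4a2, and Clec7a was 0.76 to 0.93 in 10 pairs, and 0.70 to 0.94 after each replicate's mean was taken off. Clec12a correlated with these 5 genes at 0.47 to 0.58, and at 0.58 to 0.74 without the replicate means. For Ly75 the ranges were -0.78 to -0.56 and -0.53 to -0.12. These libraries share groups, replicates, and scaling, so the r values are descriptions. Among 11589 genes with a mean of at least 1 CPM, the non-member most like each receptor was Msr1 for Clec4e (r = 0.95), Ms4a7 for Clec4d (0.97), Fcor for Clec4n (0.94), Emb for Clec4a2 (0.95), and Ccl9 for Clec7a (0.92). It was Spcs1 for Clec12a (0.89), Adgre4 for Clec5a (0.84), Ifi35 for Clec10a (0.89), and Topbp1 for Ly75 (0.97).

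The neighbours of the members in the genome were mixed. In the Dectin-2 cluster Clec4a3, a close relative of Clec4a2, had 7.24 CPM in suspension and 14.2 CPM in gels (log2 difference 0.92, adjusted p = 0.0551 by edgeR), while Clec4a4 and Clec4b1 stayed under 1 CPM in every library. Clec4b2, between Clec4a2 and Clec4n, had 0.328 and 0.71 CPM and was not called (adjusted p = 0.382). Clec4a1, a further Clec4a gene, had 30.5 and 33.0 CPM and was not called either (log2 difference 0.14, adjusted p = 0.78). In the Dectin-1 cluster Clec12b and Clec1a, between Clec12a and Clec7a, were also under 1 CPM in every library, so the 2 receptors with higher levels in gels flank genes at very low levels. Cd302, next to Ly75, had 25.5 ± 10.3 CPM (SD, n = 6) in suspension and 56.5 ± 14.2 CPM (SD, n = 12) in gels (log2 difference 1.19, adjusted p = 0.00231), whereas Ly75 itself was not called. Mgl2, a near copy of Clec10a beside it, had 30.1 CPM in suspension and 41.9 CPM in gels (adjusted p = 0.554). The study's methods name RSEM for TPM, but how reads that match several genes entered the deposited whole-number counts is not given in the sources used here, so counts within the Clec4a family and between Clec10a and Mgl2 are uncertain. The Clec9a gene shares 474 bases with Clec1b on the same strand. Ly75 overlaps the antisense gene Gm13571, with at most 34 counts in a library, and the strand setting of the counting is not given either.

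Among 55 other C-type lectin genes, 47 were in the table and 23 were tested. Of these, 4 were higher and 3 lower in gels, against 20.2% of all tested genes in both directions, and 7 and 5 with the block, against 34.8%. The 4 were Cd302, Clec4a3, Klrb1b, and Layn, and the 3 were Cd93, Klrd1, and Klrk1. Among these 7 called genes the largest differences were those of Klrb1b (log2 1.53, adjusted p = 0.0461), Klrd1 (log2 -1.27, adjusted p = 0.0638), which encodes the natural killer receptor CD94, and Layn (log2 1.21, adjusted p = 0.056), a hyaluronan receptor, all by edgeR. Klrd1 was very low, at 0.742 CPM in suspension and 0.333 CPM in gels, with at most 32 counts in a library. By mean CPM over all 18 libraries, not set against length, the first 3 of the list were Cd69, Cd302, and Cd72. Cd69, an early activation marker, had 48.2 CPM in suspension and 131 CPM in gels and was called only with the block (log2 difference 1.33, adjusted p = 0.283 by edgeR, and 1.40, adjusted p = 0.000334, with the block). Cd72 had 37.2 and 44.9 CPM (adjusted p = 0.328, and 0.199 with the block). The median log2 difference of the 23 was 0.26.

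Of the adaptors and signalling genes below the receptors, all 24 were tested, and 2 were higher (Bcl10 and Traf6) and 3 lower (Inpp5d, Nfatc1, and Rubcn) in gels, a share close to the 20.2% of all tested genes. With the block 5 were higher and 4 lower, against 34.8% of all tested genes. Their median log2 difference was -0.08. Bcl10, the link from CARD9 to NF-κB, was at 43.0 ± 3.98 CPM (SD, n = 6) in suspension and at 81.7 ± 19.7 CPM (SD, n = 12) in gels (log2 difference 0.92, adjusted p = 0.00453 by edgeR). Its highest suspension library was at 48.1 CPM and its lowest gel at 48.3 CPM. Inpp5d, the lipid phosphatase SHIP-1, was at 225 ± 30.6 CPM (SD, n = 6) and at 115 ± 24.8 CPM (SD, n = 12) (log2 difference -0.97, adjusted p = 0.0016). Its lowest suspension library was at 193 CPM and its highest gel at 145 CPM. How many of all tested genes lack overlap was not counted. Nfatc1, a calcium-regulated factor, differed by -0.88 (adjusted p = 0.0176). The most abundant were Fcer1g, the adaptor that Mincle, MCL, and Dectin-2 borrow, with 864 CPM in suspension and 1404 CPM in gels (log2 difference 0.77, adjusted p = 0.143, and 0.0342 with the block), Syk with 636 and 560.3 CPM (adjusted p = 0.747), and Prkcd with 596 and 556 CPM (adjusted p = 0.715).

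Genes that Syk and CARD9 signalling is known to induce, which LPS and other stimuli induce as well, were mostly higher in gels. Of 16 listed, 15 were tested. Without the block 8 were higher and 0 lower, against 20.2% of all tested genes in both directions and 7.78% higher. With the block 10 were higher and 1 (Egr3) lower, against 34.8% in both directions and 15.6% higher. The median log2 difference without the block was 1.55. This list, too, was chosen with earlier results of these data known. The 8 called without the block were Il1b, Il6, Cxcl1, Ccl3, Ccl4, Ptgs2, Egr2, and Nfkbiz. Ptgs2, which encodes COX-2, was at 4.93 to 139 CPM in suspension and at 44.3 to 1836 CPM in gels (log2 difference 2.78, adjusted p = 0.0503 by edgeR). Il1b was at 411 ± 265 CPM (SD, n = 6) and at 1595 ± 914 CPM (SD, n = 12) (log2 difference 1.92, adjusted p = 0.0163). Egr2 was at 6.03 and 21.9 CPM (log2 difference 1.80, adjusted p = 0.00109). Il1rn, the receptor antagonist of interleukin-1 and the next most abundant, was at 450 and 588 CPM and was not called (adjusted p = 0.637).

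The cell type label was checked with marker genes. The 14 DC markers summed to 19116 to 56048 CPM in suspension and to 26307 to 61186 CPM in gels, with Cd74, H2-Aa, and H2-Ab1 (antigen presentation) and Ccr7 (the CCL19 receptor) among its most abundant genes. Flt3 and Ciita, both on that list, were lower in gels and Cd80 higher, and the other 11 were not called. Of all tested genes 20.2% were called in either direction. With the block Itgax, which encodes CD11c, was also higher (log2 difference 0.72, adjusted p = 0.0168 by edgeR). The cDC1 list was carried by Irf8. Its genes Clec9a and Cadm1 were at 0 to 0.638 CPM, whereas Batf3 was at 72.9 CPM in suspension and 101 CPM in gels. On that list Xcr1, a cDC1 chemokine receptor, was higher in gels (1.78 and 3.94 CPM) and Wdfy4 lower (71.7 and 37.9 CPM). With the block 3 of its 6 tested genes were higher, Batf3 (log2 difference 0.53, adjusted p = 0.0171 by edgeR) and Irf8 (log2 difference 0.44, adjusted p = 0.083) besides Xcr1. Over all tested genes 15.6% were higher with the block. Macrophages and monocytes express Mincle and Dectin-1 as well, and their markers summed to 950.3 to 6071 CPM in suspension and to 1028 to 7486 CPM in gels. None of the 14 tested was called higher by edgeR and 1, Ccr2, lower, where 7.78% of all tested genes were higher. With the block 7 of 14 were higher and 1 lower, against 15.6% of all tested genes higher and 34.8% in both directions. Fcgr1 (log2 difference 1.37, adjusted p = 0.25, and 0.00467 with the block), Adgre1, and Cd14 were among the higher ones. The macrophage and monocyte sum averaged 5138, 2555, and 1062 CPM in suspension of replicates 1, 2, and 3. The DC marker sum averaged 20860, 36775, and 54945 CPM there. Clec4e in suspension was highest in replicate 1 and lowest in replicate 3, and a link to either sum was not tested. The most abundant genes of the macrophage and monocyte list were Cd14, Ly6c2, and Csf1r.

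Eosinophil markers summed to 118 to 1360 CPM in suspension and to 14.1 to 170 CPM in gels, and all 8 tested were lower in gels, with log2 differences of -5.06 for Ear1, -3.51 for Ccr3, and -3.40 for Ear6. The most abundant of that list was Prg2, at 432 CPM in suspension and 45.7 CPM in gels. Neutrophil markers summed to 789 to 10094 CPM in suspension and to 1198 to 5414 CPM in gels, with 3 of 12 lower (Retnlg, Cxcr2, and Ly6g). Of basophil and mast cell markers 1 of 7 was lower, Kit. Beside these counts, 1713 of all 13844 tested genes were called lower in gels. Lymphocyte markers summed to 14.3 CPM at most. Of 4 tested, 0 were called by edgeR and 1 with the block, against 20.2% and 34.8% of all tested genes. The part of these cell types in the receptor differences was not tested.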

How the data were processed

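RNA was measured in 18 libraries of LPS-matured DCs. The authors deposited whole-number read counts per Ensembl gene without normalization. Their methods give stranded mRNA libraries, single-end reads, alignment with STAR 2.7.0f to GRCm38, TPM from RSEM (not used here), and DESeq2. Which tool gave the deposited whole-number counts is not given in the sources used here. Groups and replicate numbers came from the labels.

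Counts were filtered with filterByExpr, scaled with TMM, and tested with the quasi-likelihood F-test of edgeR 4.0.16 in R 4.3.3 in 1 fit over all 6 groups, at an FDR of 0.1 over all 13844 tested genes. Standard errors came from the F statistic. Log2 CPM used a prior count of 2. Replicate numbers pair libraries by date and lane in the library names. Deviations from group means correlated with a mean r of 0.43 (-0.15 to 0.85) in 45 same-numbered pairs and of -0.21 in 90 others, across genes. Each fit was repeated with that block. The alternatives were DESeq2 1.42.0, its size factors, no filter, GC and length offsets (loess span 0.5, 29850 of 29875 genes with values), an FDR of 0.05, only the groups compared, total-count CPM, and libraries left out. The fit was also run on simulated counts, whose spread between libraries was set by hand and not estimated from these data. Named genes were all members, up to 3 of each list with the largest called difference and 3 with the highest level, the gene most like each member, and lectin neighbours. Others named to spell out small counts, and Fcgr1 and Adgre1, were chosen after their values were seen. The members and lists were chosen with earlier results of these data known. Counting floors of 3 counts cover counting error only.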

Additional observations from a re-analysis of the deposited data

Results flagged for a closer look

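In each of the 10 members the highest and the lowest of the 6 suspension libraries were compared with the rest of that group, 20 comparisons, of which chance flags about 1 in 20 groups. In Ly75, which encodes the endocytic receptor DEC-205, the suspension library titled without CCL19 of replicate 2 stood apart at 367 CPM, with the next library at 167 CPM, a gap of 0.637 of the whole range, past Dixon's critical value for 6 samples. No other member was past that value.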

How the results depend on the processing

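In gels against suspension, 6 members passed with the replicate block, against 4823 of 13844 tested genes. DESeq2 called 6 (3414 of 13844), its size factors in edgeR gave 5 (2735), and no filter 5 (2715 of 29875). GC and length offsets alone gave 2, against 2718 of 13844 genes, and offsets with the block 6, against 5068. With offsets and block Clec4a2 lost its call (adjusted p = 0.23 by edgeR) and Ly75 was called lower (adjusted p = 0.0992). With 1 replicate left out, 1 passed without replicate 2 (631 of 14106 genes) and 1 without replicate 3 (1431 of 13662). Without replicate 1 it was 5 (1550 of 13730). At 4.4 mg/ml the count was 6 with the block, alone or with the offsets (then with Ly75, lower, in place of Clec4a2), 1 with the offsets alone, 1 at an FDR of 0.05, 1 with only the groups compared, and 0 to 5 when 1 replicate was left out. Of all 13844 genes, 4420, 4748, 2261, and 1229 were called in the first 4 of these, and 1591 of 13335 with only the groups compared. Without replicates 1, 2, and 3 they were 1615 of 13730, 106 of 14106, and 946 of 13662. For any difference the count of members was 5 with the block, alone or with the offsets, 1 with DESeq2, and 3 with no filter. All genes called were 3363, 3620, and 2015 of 13844, and 1993 of 29875 with no filter. At 1.7, 2.6, and 3.5 mg/ml the members called were 4, 4, and 5 with the block, 3, 1, and 2 with the block and the offsets, and 1, 1, and 2 with no filter. Of all 13844 genes, 403, 2990, and 2551 were called with the block, and 523, 3380, and 2378 with block and offsets. With no filter they were 79, 1228, and 706 of 29875. DESeq2 gave 1 member at 2.6 and 3 at 3.5 mg/ml, 2.6 mg/ml gave 0 to 1 when 1 replicate was left out, and 3.5 mg/ml gave 1 without replicate 2 of 4.4 mg/ml. Of all genes, DESeq2 called 1828 and 1343 of 13844, and the last of these fits 781 of 14368. At 2.6 mg/ml 1318 of 13730, 0 of 14106, and 4 of 13662 genes were called without replicates 1, 2, and 3. The causes were not tested. The block changed no call for the trend or between the suspension groups.

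The direction for Clec4e, Clec4d, Clec4n, Clec4a2, Clec7a, and Clec12a was higher in gels than in suspension under every alternative run. With 1 library or replicate left out, the difference of Clec5a ranged from -0.017 (without replicate 3) to 0.87, and that of Clec10a from -0.65 to 0.31 (without replicate 3). Slopes per mg/ml near 0 changed sign. With libraries left out they ranged from -0.099 to 0.064 for Clec4d, from -0.041 to 0.065 for Clec4n, from -0.054 to 0.13 for Clec4a2, from -0.0072 to 0.19 for Clec7a, and from -0.10 to 0.19 for Clec10a (-0.051 without replicate 2 of 4.4 mg/ml). With the offsets they were -0.060 for Clec4n, -0.054 for Clec4a2, and -0.052 for Clec7a, with offsets and block -0.026 for Clec4n and -0.013 for Clec7a, and with no filter -0.011 for Clec4n. Total-count scaling moved no mean level by more than 1 SD. The offsets moved the split of all genes called at 3.5 mg/ml from 273 higher and 406 lower to 357 and 178. With 3 libraries a group and counts under 10 per library, differences in Clec9a were not detectable.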
